A study of Mus musculus with 10 samples.

Results

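The Hox genes encode homeodomain transcription factors that sit in 4 clusters in the mouse genome, named HoxA to HoxD. The genes described here are those whose symbol is Hoxa, Hoxb, Hoxc or Hoxd followed by a number, plus Evx2, the homeobox gene next to Hoxd13. That rule found 40 genes among the 47729 genes of the table, 11 in HoxA, 10 in HoxB, 9 in HoxC and 10 in HoxD with Evx2 included. The 10 libraries were made from total RNA of mouse forelimb buds, taken at embryonic day 11.5 to 12. Each of the 5 knockout embryos carried Prx1Cre and had loxP-flanked (floxed) Cxxc1 on both chromosomes. Prx1Cre is known to drive recombination in limb bud mesenchyme, and ectoderm, vessels and blood cells of the bud lie outside its main domain. Among the 5 control embryos, control 1 carried Prx1Cre and 1 floxed allele, and controls 2 and 4 carried 1 floxed allele and no Cre. Control 3 carried 2 floxed alleles and no Cre, and control 5 carried 2 floxed alleles with its Cre status marked by a question mark in the label. Knockouts 1 and 2 and controls 1 and 2 came from litter A, and litters B, C and D gave 1 embryo of each kind, numbered 3, 4 and 5. The embryos had 50.0 ± 1.0 somites in the knockout group and 50.2 ± 0.837 in the control group (SD, n = 5 each).

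Hox genes of a cluster lie in one orientation in the order of their paralog numbers, from group 1 at the 3' end to group 13 at the 5' end, and low-numbered genes are generally switched on earlier and closer to the head. In the limb bud, HoxA and HoxD genes act along the axis from shoulder to digits. Groups 9 and 10 are known for the upper arm, group 11 for the forearm, and groups 12 and 13 for the hand plate, where Hoxa13 and Hoxd13 are required. HoxB and HoxC genes are known mainly from the trunk, the limb field and, for some HoxC genes, the hindlimb. CXXC1, also called CFP1, is a subunit of the SETD1 complexes that methylate lysine 4 of histone H3, and its CXXC domain binds unmethylated CpG dinucleotides.

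Cxxc1 was at 75.1, 75.8, 76.2, 75.8 and 73.1 CPM (counts scaled to the size of each library) in knockouts 1 to 5, against 91.4, 95.4, 105.8, 101.6 and 89.5 CPM in controls 1 to 5. The counts cover the whole gene, not its floxed segment alone. Every knockout lay below every control, including control 5, and the log2 fold change of knockout over control was -0.36 (SE 0.049, adjusted p = 0.000144). Adjusted p-values in this text come from edgeR's quasi-likelihood test, adjusted by Benjamini-Hochberg over all genes tested, and a gene rose or fell where that value was below 0.05. Libraries held 33274911 to 49880815 counts in the knockout group and 44170293 to 49001252 in the control group. Marker genes of several cell types differed between the groups. The limb mesenchyme markers summed to 804 to 897 CPM in knockouts against 1753 to 1847 CPM in controls, and 5 of the 6 fell. Cartilage markers (5 of 5 fell) summed to 136 to 159.8 CPM against 444 to 782 CPM. Macrophage markers (8 of 8 rose) summed to 188 to 222 CPM against 49.5 to 59.9 CPM, and ectoderm markers (5 of 6 rose) to 494 to 598 CPM against 275 to 449 CPM. Markers of endothelium (7 of 8), erythroid cells (7 of 8) and muscle precursors (4 of 6) also rose. Of 4 Schwann precursor markers, Sox10 fell (-0.84) and 3 did not pass. Over all genes tested, 18.1% rose and 17.1% fell. Neural markers summed to 10.8 to 14.1 CPM against 11.6 to 15 CPM, with Neurog2 at 0 in all libraries but control 2 (0.0232 CPM), and hindlimb markers to 10.8 to 15.4 CPM against 10.7 to 13.9 CPM. In bulk tissue, fewer cells of a type and less RNA per cell cannot be told apart, and the part of these shifts in the Hox values was not tested.

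The direction of change followed the position of a gene in HoxA. HoxB genes that changed were higher in the knockouts, as was Hoxc13, the only HoxC gene that changed, and HoxD genes that changed were lower. Of the 40 genes, 38 had enough counts to be tested, 10 rose, 7 fell and 21 did not pass. The called share was 44.7% of the tested Hox genes, against 35.2% of all genes tested. The share that rose was 26.3%, against 18.1% of all genes, and the share that fell was 18.4%, against 17.1%. These shares lie near those of all genes or moderately above them. In 11 of the 38 genes the 5 knockouts and the 5 controls did not overlap, 6 of them higher and 5 lower, where 25.3% of all genes tested showed no overlap. The median log2 fold change of the tested Hox genes was 0.25, against -0.0009 over all genes. All 17 called genes moved the same way in litters A, B, C and D. They were called on these same libraries, so this agreement is partly built in and is no replication. The share of all called genes that did so was not taken. Hoxb13 and Hoxd1 were not tested, with highest values of 0.0302 and 0.161 CPM in knockouts against 0.0438 and 0.202 CPM in controls.

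**Figure D1:**
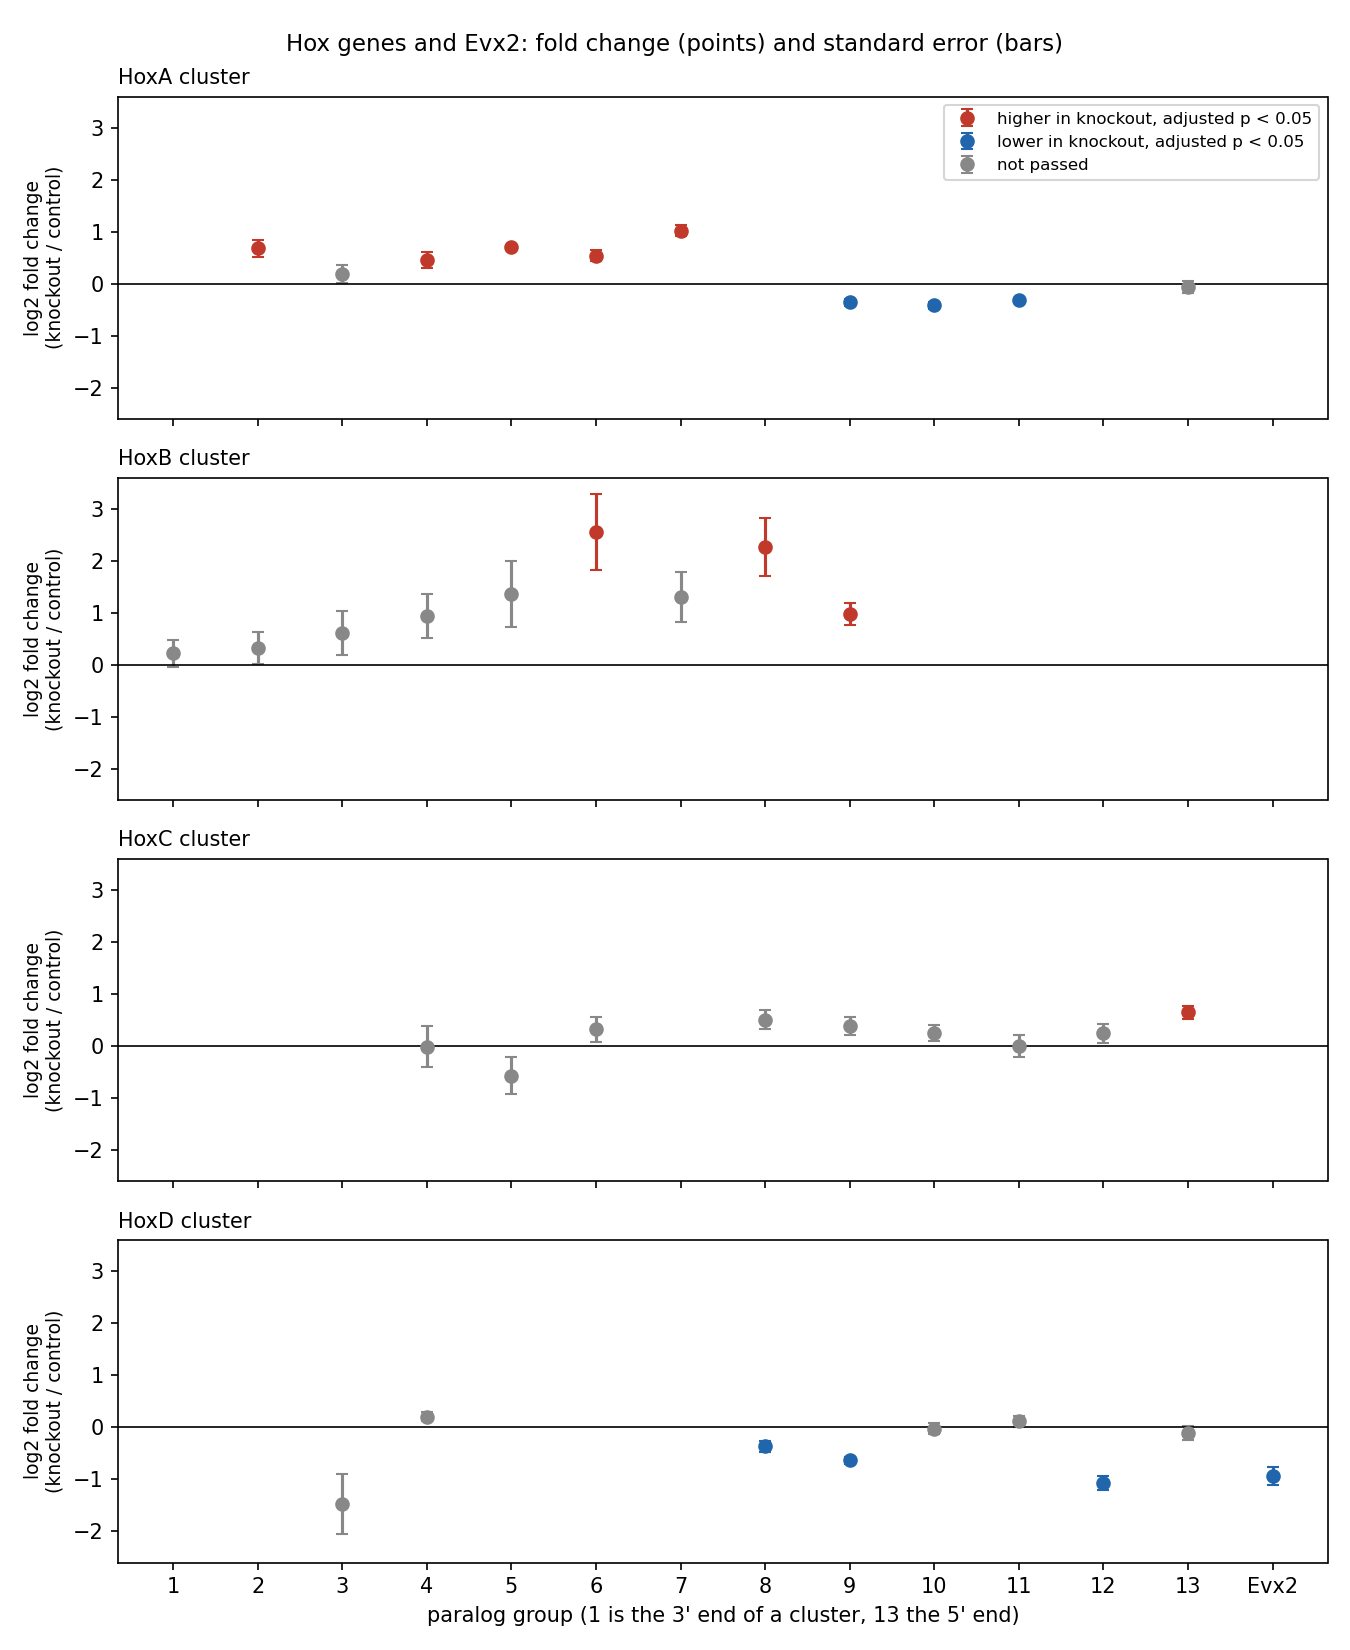
Log2 fold change of knockout over control (points) with its standard error (bars) for 37 of the 38 Hox genes tested, 1 panel per cluster, ordered by paralog group. In HoxA the points of groups 2 to 7 lie above 0 and those of groups 9 to 13 below it, the HoxB points all lie above 0, and the lowest called points are Hoxd12 (-1.06) and Evx2 (-0.93).

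Of the 6 HoxA genes of groups 2 to 7, 5 rose and Hoxa3 did not pass, where 18.1% of all genes tested rose. Hoxa2, needed for the second branchial arch, was at 3.69, 4.29, 5.67, 5.14 and 6.28 CPM in the knockouts, against 3.31, 3.39, 2.57, 2.61 and 3.73 CPM in the controls. The groups touched only at knockout 1 and control 5, and Hoxa2 rose by 0.68 on the log2 scale (SE 0.17, adjusted p = 0.00695).

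Hoxa5 had the smallest adjusted p of the Hox genes. It encodes a factor of the cervical and upper thoracic region and lung, and it was at 32, 33, 31.0, 32.3 and 30.2 CPM in the knockouts, against 20.1, 19.3, 19.1, 19.1 and 19.9 CPM in the controls. The lowest knockout exceeded the highest control by far more than either group's spread, and the log2 fold change was 0.70 (SE 0.048, adjusted p = 6.94e-07), with 0.59 to 0.74 in the 4 litters. Hoxa6 was at 7.55, 7.43, 7.0, 7.28 and 6.21 CPM in the knockouts, against 4.88, 5.39, 4.98, 5.07 and 4.09 CPM in the controls (0.54, SE 0.10, adjusted p = 0.00134). Hoxa7, a trunk patterning gene, was at 27.2, 27.9, 33.9, 33.6 and 33.6 CPM in the knockouts, against 14, 15.7, 13.1, 15.6 and 18.5 CPM in the controls. Both genes separated the groups completely, and Hoxa7 had the largest rise in HoxA (1.02, SE 0.10, adjusted p = 1.2e-05). Hoxa4 averaged 2.92 ± 0.475 CPM in knockouts and 2.13 ± 0.234 CPM in controls (SD, n = 5 each). It rose by 0.46 on the log2 scale (SE 0.15, adjusted p = 0.029), a call lost when any of controls 1 and 5 and knockouts 2, 3 and 5 was left out and in 3 other settings (0.35 to 0.51). Hoxa3 averaged 18.3 ± 4.09 CPM in knockouts and 16.0 ± 3.69 CPM in controls, with a log2 fold change of 0.19 (95% interval -0.18 to 0.56). Opposite-strand transcripts share 25.4% of the exon bases of Hoxa3, 20.4% of those of Hoxa7 and 16.0% of those of Hoxa4. Whether reads were counted by strand is not stated, so these counts are less certain than that of Hoxa5, which shares none.

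The 3 HoxA genes of groups 9 to 11 fell, each with no overlap between groups. Of all genes tested, 17.1% fell and 25.3% showed no overlap in either direction. Hoxa9 was at 119, 123, 107, 118 and 110.0 CPM in the knockouts, against 163, 155, 148, 130.4 and 146 CPM in the controls (-0.36, SE 0.061, adjusted p = 0.000714). Hoxa10 was at 176, 171, 135, 145 and 146 CPM in the knockouts, against 225, 208, 196, 203 and 199 CPM in the controls (-0.42, SE 0.074, adjusted p = 0.000914). Hoxa11, which acts with Hoxd11 in forming radius and ulna, was at 95.3, 96.4, 85.1, 91.5 and 87.6 CPM in the knockouts, against 120.2, 116, 117, 111 and 105 CPM in the controls. Its log2 fold change was -0.32 (SE 0.050, adjusted p = 0.000372), so the change of direction in HoxA lay between the neighbours Hoxa7 and Hoxa9. Hoxa13, a gene of the hand plate, was at 123, 99.7, 84.2, 87.5 and 88.7 CPM in the knockouts, against 95.9, 86.0, 116, 116 and 93.5 CPM in the controls. The groups overlapped and the log2 fold change of -0.07 did not pass (95% interval -0.32 to 0.18, adjusted p = 0.682). Litter A gave 0.29 while the other 3 litters gave -0.45, -0.41 and -0.08, and Hoxa13 passed at -0.32 when litter A was left out.

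**Figure D2:**
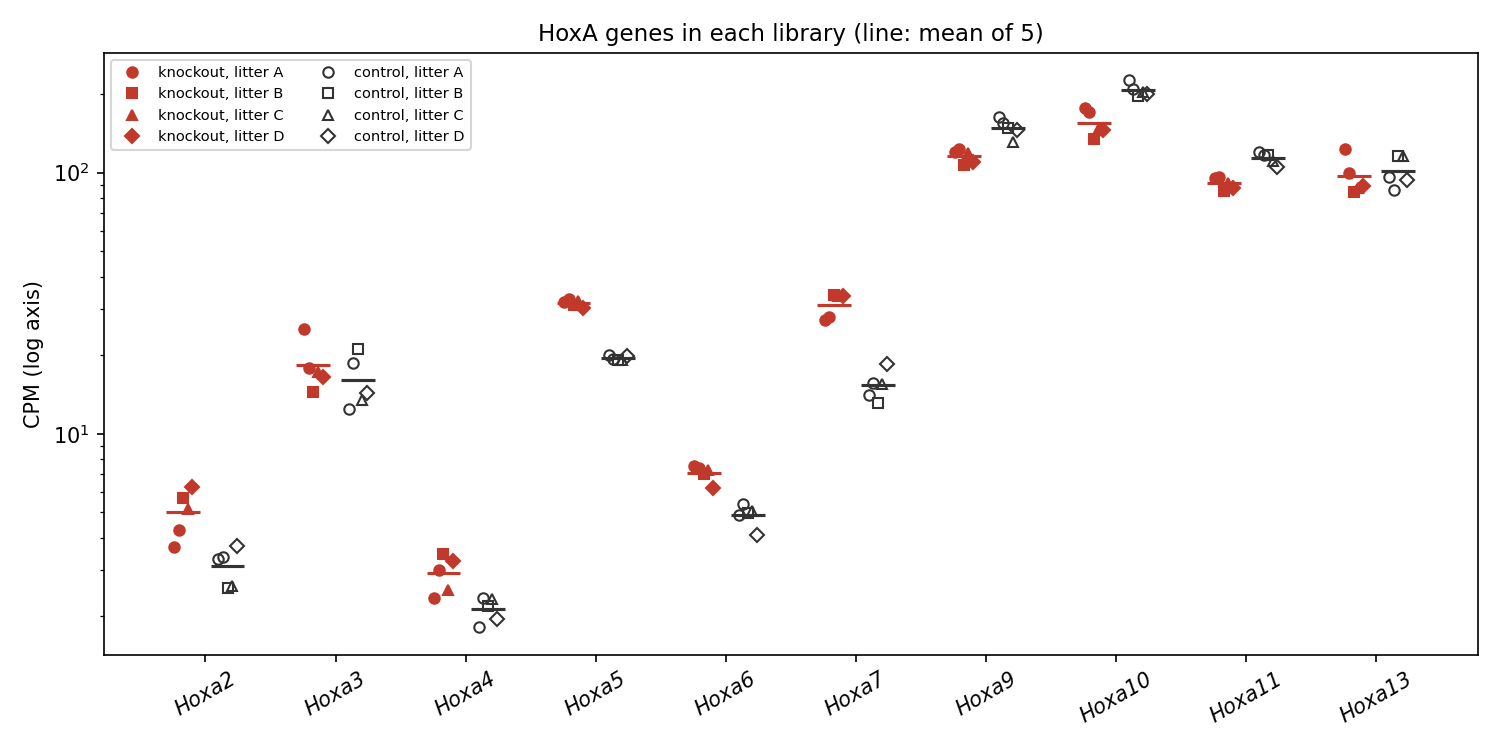
CPM on a log axis of 10 HoxA genes in the 5 knockouts (filled, left) and 5 controls (open, right), with litter shown by shape and group means by lines. Knockouts sit above controls for Hoxa5, Hoxa6 and Hoxa7, below them for Hoxa9, Hoxa10 and Hoxa11, and among them for Hoxa13.

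Promoter windows of a HoxA gene that rose and of one that fell are shown because CXXC1 binds CpG, which stands in capitals. Each window is the 300 bases around the gene's RefSeq start on the minus strand of GRCm38.p6, written 5' to 3' along the gene. The window of Hoxa5 lies at chr6:52204538-52204837 and holds 29 CpG, a number reached by 12.9% of the 32851 windows in the genome. That of Hoxa10 lies at chr6:52240805-52241104 and holds 12, reached by 39.6%. Hoxa10 has another window, at chr6:52234890-52235189, with 21 CpG, reached by 24.8%.
Hoxa5: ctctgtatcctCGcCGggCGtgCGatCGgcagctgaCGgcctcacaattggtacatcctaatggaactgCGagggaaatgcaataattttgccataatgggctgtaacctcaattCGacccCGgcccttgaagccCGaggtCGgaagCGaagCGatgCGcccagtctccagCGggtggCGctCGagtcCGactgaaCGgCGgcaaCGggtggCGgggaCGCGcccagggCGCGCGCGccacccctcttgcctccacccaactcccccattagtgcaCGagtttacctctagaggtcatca
Hoxa10: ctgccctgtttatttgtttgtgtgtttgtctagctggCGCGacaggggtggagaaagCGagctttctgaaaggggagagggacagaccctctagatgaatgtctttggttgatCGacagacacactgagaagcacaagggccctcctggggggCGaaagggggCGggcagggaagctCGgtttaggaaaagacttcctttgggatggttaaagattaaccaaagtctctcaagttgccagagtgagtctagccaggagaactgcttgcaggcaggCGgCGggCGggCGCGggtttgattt
Among all windows the median was 7 CpG. Windows were at hand for 23 of the 40 Hox genes, 25 windows in all, with a median of 15 CpG. Medians were 13 in the 5 windows of genes that rose, 14 in the 8 of genes that fell and 20 in the 11 of genes that did not pass. Over the 22 tested genes with a window, Spearman's rho between CpG number and log2 fold change was -0.14, given as a description of genes that share clusters and base composition.

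Of the 9 HoxB genes tested, 3 rose, none fell and 6 did not pass, and all 9 had a positive log2 fold change. The called share of 33.3% was near the 35.2% of all genes tested, of which 18.1% rose. HoxB levels were low. Exon length below is that of all annotated exons of a gene, merged, so sums per kilobase depend on the annotation. Per kilobase of exon, the cluster summed to 11.9 ± 6.09 CPM in knockouts and 6.03 ± 2.62 CPM in controls (SD, n = 5 each), 2.27% and 1.03% of the summed Hox level. Hoxb6, the gene with the largest positive value, was at 0.947, 0.420, 4.77, 1.52 and 4.84 CPM in the knockouts, against 0.153, 0.279, 0.368, 0.146 and 1.17 CPM in the controls. Knockouts 3 and 5 were far above the other knockouts, control 5 overlapped the lower knockouts, and the log2 fold change was 2.55 (SE 0.73, adjusted p = 0.0164). Hoxb8 was at 1.47, 0.916, 5.40, 2.33 and 5.53 CPM in the knockouts, against 0.329, 0.395, 0.531, 0.438 and 1.53 CPM in the controls (2.27, SE 0.56, adjusted p = 0.0075). The same libraries were high, and again only control 5 reached into the range of the knockouts. Hoxb9 was at 2.89, 3.74, 4.28, 2.07 and 5.07 CPM in the knockouts, against 1.51, 1.81, 1.94, 1.88 and 1.98 CPM in the controls. It did not follow control 5, its groups did not overlap, and it rose by 0.98 on the log2 scale (SE 0.22, adjusted p = 0.00369), though it did not pass without litter A (0.97).

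Hoxb1 to Hoxb5 and Hoxb7 did not pass, with log2 fold changes of 0.23 to 1.36. Hoxb7 was close to the threshold (1.30, adjusted p = 0.0546) and passed with the replicate number or the litter as a block (1.17 in both fits), and also with library size only, upper quartile scaling or DESeq2, and without knockout 1 or knockout 2. Control 5 was the highest control for each gene from Hoxb2 to Hoxb9, and knockouts 3 and 5 were the highest knockouts for the same genes. Without control 5, the log2 fold change of Hoxb6 was 3.38 and the log2 fold change of Hoxb8 was 2.87. In that fit Hoxb2 (0.68), Hoxb4 (1.32), Hoxb5 (2.03) and Hoxb7 passed as well. The same 3 libraries had the highest Meis2, a Hox cofactor gene of the proximal limb picked after its values were seen, at 40.1 CPM in knockout 3 and 57.1 in knockout 5 and 67.4 in control 5, with the other 7 libraries at 23.3 to 37.9 CPM. The part of Meis2 in the HoxB values was not tested. The antisense transcript Hoxb3os overlaps 52.9% of Hoxb3 exon bases and 27.3% of those of Hoxb2.

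**Figure D3:**
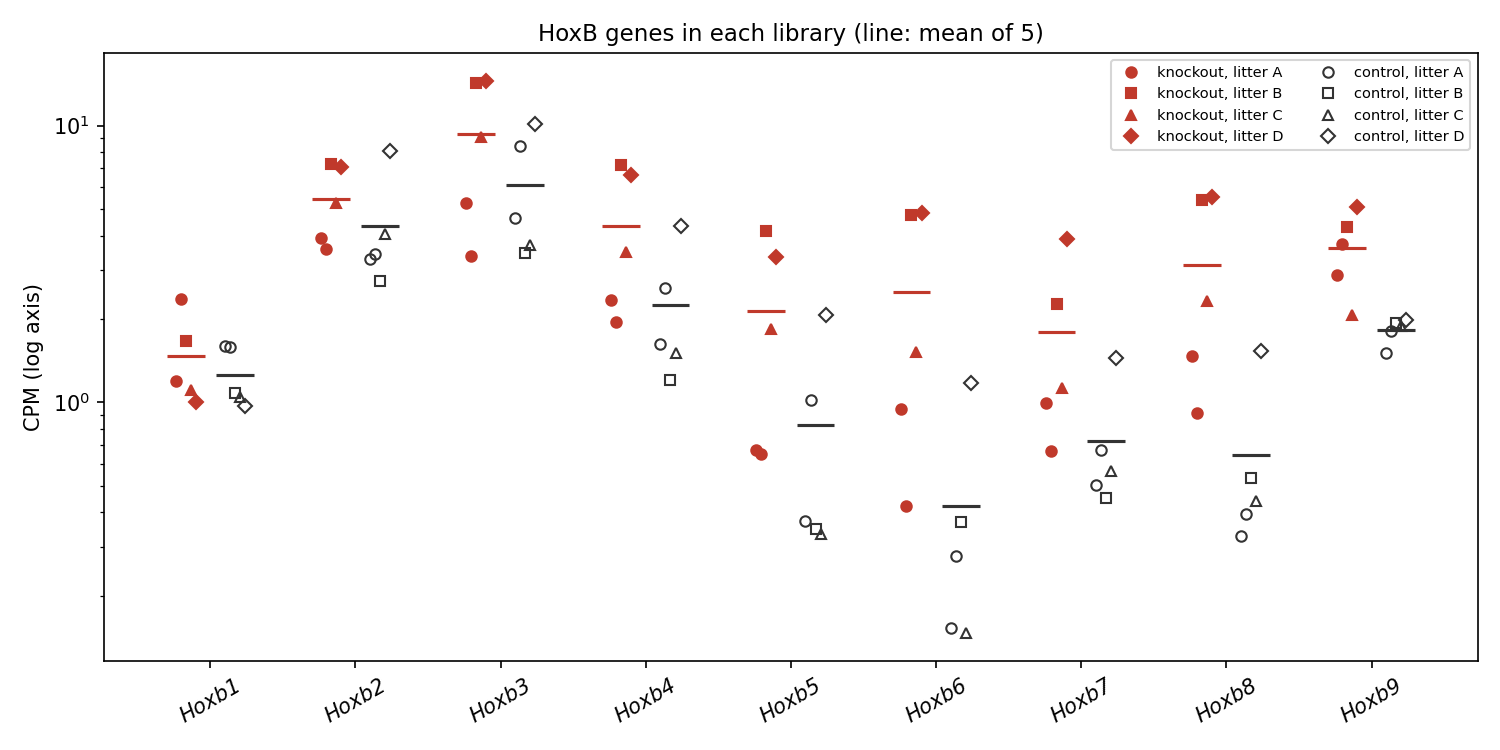
CPM on a log axis of Hoxb1 to Hoxb9 in the 5 knockouts (filled, left) and 5 controls (open, right), with litter shown by shape and group means by lines. The litter B and D knockouts and the litter D control stand high from Hoxb2 to Hoxb8, while for Hoxb9 every knockout lies above every control.

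In HoxC, 1 of 9 genes tested rose and 8 did not pass, a called share of 11.1% against 35.2% of all genes tested. Hoxc13, known from hair and nail, was at 13.3, 13.9, 11.2, 11.1 and 11.2 CPM in the knockouts, against 7.14, 6.13, 7.33, 10.1 and 8.03 CPM in the controls. The groups did not overlap, with knockouts 1 and 2 of litter A highest, and the log2 fold change was 0.65 (SE 0.13, adjusted p = 0.00189). It was 0.98, 0.58, 0.13 and 0.46 in litters A to D, and it did not pass without litter A (0.40). Hoxc13 is known from the ectoderm and its derivatives, and the ectoderm markers rose in the same libraries; the part of that shift was not tested. Hoxc8, a thoracic patterning gene, had a log2 fold change of 0.51 (adjusted p = 0.0528) and passed with the replicate number or the litter as a block (0.51 in both fits). It also passed with library size only, upper quartile scaling or DESeq2, and without control 4, control 5, knockout 1 or knockout 2 (at most 0.62). Hoxc9 (0.40) passed with the litter block (0.43) and without control 4 (0.57). Hoxc4, Hoxc5 and Hoxc6 were highest of all in control 5, at 10.8, 13 and 18.0 CPM, and their log2 fold changes were -0.01, -0.57 and 0.32, with Hoxc6 passing without control 5 (0.60). Hoxc10, Hoxc11 and Hoxc12, genes of posterior trunk and hindlimb, averaged 3.08, 2.46 and 2.89 CPM in knockouts and 2.58, 2.45 and 2.43 CPM in controls, with log2 fold changes of 0.25, 0.01 and 0.25. The summed HoxC level per kilobase was 22.5 ± 0.917 CPM in knockouts and 18.7 ± 4.76 CPM in controls (SD, n = 5 each).

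In HoxD, no gene rose, 4 fell and 5 did not pass among the 9 tested. The called share was 44.4%, against 35.2% of all genes tested, of which 17.1% fell. The gene that fell most was Hoxd12, a hand plate gene, at 96.3, 87.1, 75.2, 69.3 and 68.2 CPM in the knockouts, against 156, 165, 189, 198 and 121 CPM in the controls. The highest knockout lay below the lowest control, and the log2 fold change was -1.06 (SE 0.13, adjusted p = 7.21e-05). Evx2, a homeobox gene known to share digit enhancers with the Hoxd genes, was at 26.2, 23.7, 15.8, 16.5 and 16.2 CPM in the knockouts, against 35.9, 38.0, 44.8, 43.2 and 26.1 CPM in the controls. Knockout 1 and control 5 met at nearly the same value, and Evx2 fell by 0.93 on the log2 scale (SE 0.17, adjusted p = 0.00132). Hoxd9, a gene of the proximal limb, was at 30.7, 32.5, 28.8, 32.4 and 28.5 CPM in the knockouts, against 52.3, 52.8, 46.9, 43.6 and 42.0 CPM in the controls. The groups did not overlap (-0.64, SE 0.075, adjusted p = 4.73e-05). Hoxd8 averaged 17.4 ± 2.67 CPM in knockouts and 22.4 ± 2.0 CPM in controls (SD, n = 5 each) and fell by 0.37 (SE 0.10, adjusted p = 0.0159). Its litter values were -0.68 in litter A and -0.10 to -0.25 in the others, and it did not pass without litter A (-0.16).

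Hoxd10, Hoxd11 and Hoxd13 did not pass, although Hoxd12 lies between Hoxd11 and Hoxd13. Hoxd13, the gene most tied to digits, was at 484, 434, 309, 326 and 333 CPM in the knockouts, against 389, 398, 437, 487 and 317 CPM in the controls. Knockouts 1 and 2 of litter A lay among the highest controls and the others near the lowest control, with a log2 fold change of -0.10 (95% interval -0.40 to 0.20, adjusted p = 0.608). Hoxd11 was at 164, 139, 123, 126 and 115 CPM in the knockouts, against 134, 131, 129.7, 126 and 94.3 CPM in the controls (0.12, adjusted p = 0.451). Hoxd10 was at 100.3, 94.2, 79.1, 89.2 and 83.5 CPM in the knockouts, against 103, 95.9, 94.4, 95.4 and 64.4 CPM in the controls (-0.02, adjusted p = 0.897). Control 5 was the lowest control for Hoxd10, Hoxd11, Hoxd12, Hoxd13 and Evx2. Hoxd4 averaged 16.0 ± 1.13 CPM in knockouts and 13.9 ± 1.47 CPM in controls (0.20, adjusted p = 0.0877), with 52.3% of its exon bases shared on the same strand. Hoxd3 averaged 0.760 ± 0.615 CPM in knockouts and 2.08 ± 0.920 CPM in controls (-1.47, adjusted p = 0.0665), and 62.3% of its exon bases are shared with other genes on the same strand, so its value depends on how reads were divided. It passed without control 3 or without knockout 3 (-1.92 to -1.71).

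**Figure D4:**
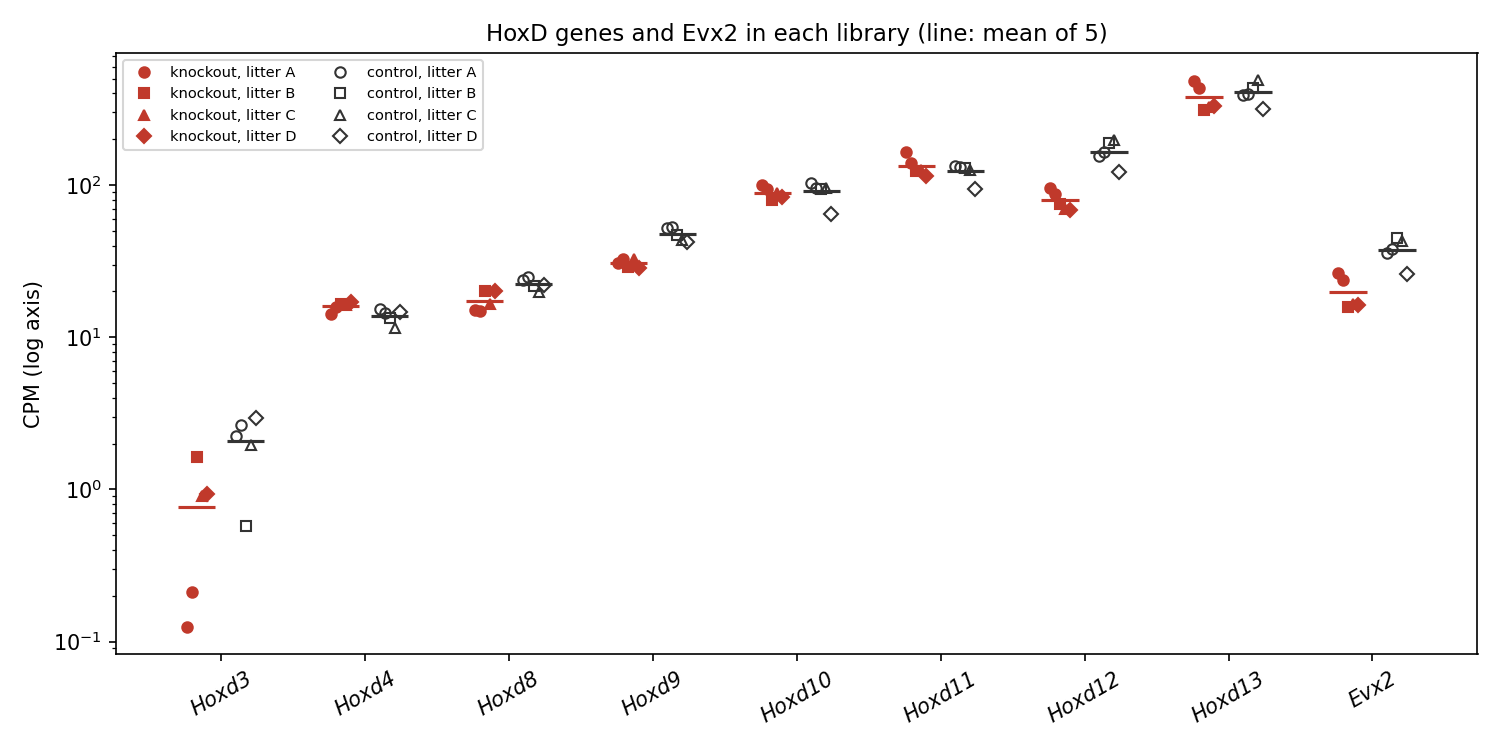
CPM on a log axis of HoxD genes and Evx2 in the 5 knockouts (filled, left) and 5 controls (open, right), with litter shown by shape and group means by lines. Knockouts lie below controls for Hoxd9 and Hoxd12 and overlap them for Hoxd10, Hoxd11 and Hoxd13.

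Hoxd12 and Hoxd13 are shown because these adjacent genes gave different values, and because their starts differ in CpG, in capitals. The windows lie on the plus strand of GRCm38.p6 and are written 5' to 3', Hoxd12 at chr2:74674763-74675062 with 13 CpG and Hoxd13 at chr2:74667975-74668274 with 37 CpG. At least as many CpG stood in 37.9% of all windows for Hoxd12 and in 5.58% for Hoxd13.
Hoxd12: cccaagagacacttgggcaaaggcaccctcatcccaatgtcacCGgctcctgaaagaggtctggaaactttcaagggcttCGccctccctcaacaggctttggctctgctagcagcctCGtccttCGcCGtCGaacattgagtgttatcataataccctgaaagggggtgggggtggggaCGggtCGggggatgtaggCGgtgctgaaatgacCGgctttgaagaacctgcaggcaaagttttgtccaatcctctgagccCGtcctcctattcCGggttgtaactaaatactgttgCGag
Hoxd13: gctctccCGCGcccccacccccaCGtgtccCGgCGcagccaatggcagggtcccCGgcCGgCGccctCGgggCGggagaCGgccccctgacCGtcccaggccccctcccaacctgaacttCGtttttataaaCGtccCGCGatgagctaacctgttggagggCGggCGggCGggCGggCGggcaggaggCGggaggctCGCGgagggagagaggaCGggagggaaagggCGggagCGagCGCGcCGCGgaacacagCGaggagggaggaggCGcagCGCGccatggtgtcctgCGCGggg
Windows of the other HoxD genes that fell held 16 (Evx2), 20 (Hoxd9) and 6 (Hoxd8) CpG. Those of the other HoxD genes that did not pass held 4 and 25 (both Hoxd11), 22 (Hoxd10), 20 (Hoxd3) and 4 (Hoxd4). The number of CpG in a window is a description of its letters and says nothing of binding or methylation there.

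A call in one gene and none in its neighbour does not show a difference between them, so the ratio of 7 genes to the group 13 gene of their cluster was tested with an exact two-sided permutation test over the 10 libraries. The mean log2 ratio of Hoxd12 to Hoxd13 was -2.23 ± 0.120 in knockouts and -1.29 ± 0.066 in controls (SD, n = 5 each), so Hoxd12 stood at 0.212 of the Hoxd13 count in knockouts and at 0.407 in controls. The difference was -0.94, with -1.03, -0.82, -0.93 and -0.89 in litters A to D, and every knockout lay below every control. The exact p was 0.00794, the smallest that 5 against 5 allows, and the adjusted p over the 7 ratios was 0.0556. Hoxa10 over Hoxa13 differed by -0.35 (exact p = 0.0159, adjusted 0.0556) and Hoxd9 over Hoxd13 by -0.51 (exact p = 0.0238, adjusted 0.0556). Hoxd11 over Hoxd13 differed by 0.23 (exact p = 0.0476, adjusted 0.0833). Over the 4 litters the differences ran from -0.61 to -0.08 for Hoxa10, from -0.95 to 0.16 for Hoxd9 and from -0.03 to 0.57 for Hoxd11, a wider spread than for Hoxd12. Hoxa9 and Hoxa11 over Hoxa13 (-0.28 and -0.25, exact p = 0.0952 each) and Hoxd10 over Hoxd13 (0.10, exact p = 0.333) did not pass. None of the 7 passed after adjustment, and 4 had an unadjusted p below 0.05. A lone ratio could not pass, since the smallest p that 5 against 5 allows gives 0.0556 after adjustment over 7.

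Levels per kilobase of exon placed Hoxd13 first in both groups, at 152 CPM per kilobase in knockouts and 163 in controls. The length used is that of all annotated exons of a gene, merged, such as 5580 bases for Hoxa9 and 2534 for Hoxd12. It can exceed the length of the transcript in use, which lowers the level, so the order of genes is approximate. Hoxd12 was seventh in knockouts at 31.3 CPM per kilobase, with single libraries at 26.9 to 38.0, and second in controls at 65.4, with libraries at 47.7 to 77.9. Next below it in the control order were Hoxa10 (60.0 to 68.9) and Hoxd10 (35.5 to 57.0). Within a library, Hoxd12 lay above Hoxa10 in 3 of the 5 controls and above Hoxd10 in all 5, while its range over the controls overlapped both of theirs. The HoxA sum per kilobase was 191.5 ± 13.7 CPM in knockouts and 208 ± 6.48 CPM in controls, and the HoxD sum 295 ± 44.6 CPM and 353 ± 47.9 CPM (SD, n = 5 each).

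Transcripts that are annotated inside the clusters and are not Hox genes numbered 46, of which 29 were tested, 13 rose and none fell. Among all genes tested, 18.1% rose and 17.1% fell. HoxA held 10 of the 13, among them Hoxaas3 (0.77), Hoxaas2 (0.56) and Hotairm1 (1.01), transcripts antisense to the 3' HoxA genes. Hoxa11os, the antisense transcript of Hoxa11, was at 473, 450.1, 295, 325 and 306 CPM in the knockouts, against 266, 244, 253, 255 and 205 CPM in the controls. Every knockout lay above every control (0.60, SE 0.13, adjusted p = 0.00417), while every knockout lay below every control for Hoxa11. These transcripts overlap over 35% of the Hoxa11 exon bases, and with the strand setting not stated the Hoxa11 count is less certain as well. Short RNA features inside the span of Hoxa11os make up 4 of the 13, and whether they took reads of Hoxa11os was not tested. In HoxD, Hoxd3os1 rose (1.05) and so did Gm28309 (0.31), which overlaps Hoxd10 and Hoxd11, and in HoxB Hoxb5os rose (2.48). Hottip, a noncoding RNA beside Hoxa13, fell by 0.52 on the log2 scale (SE 0.14, adjusted p = 0.0132).

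**Figure D5:**
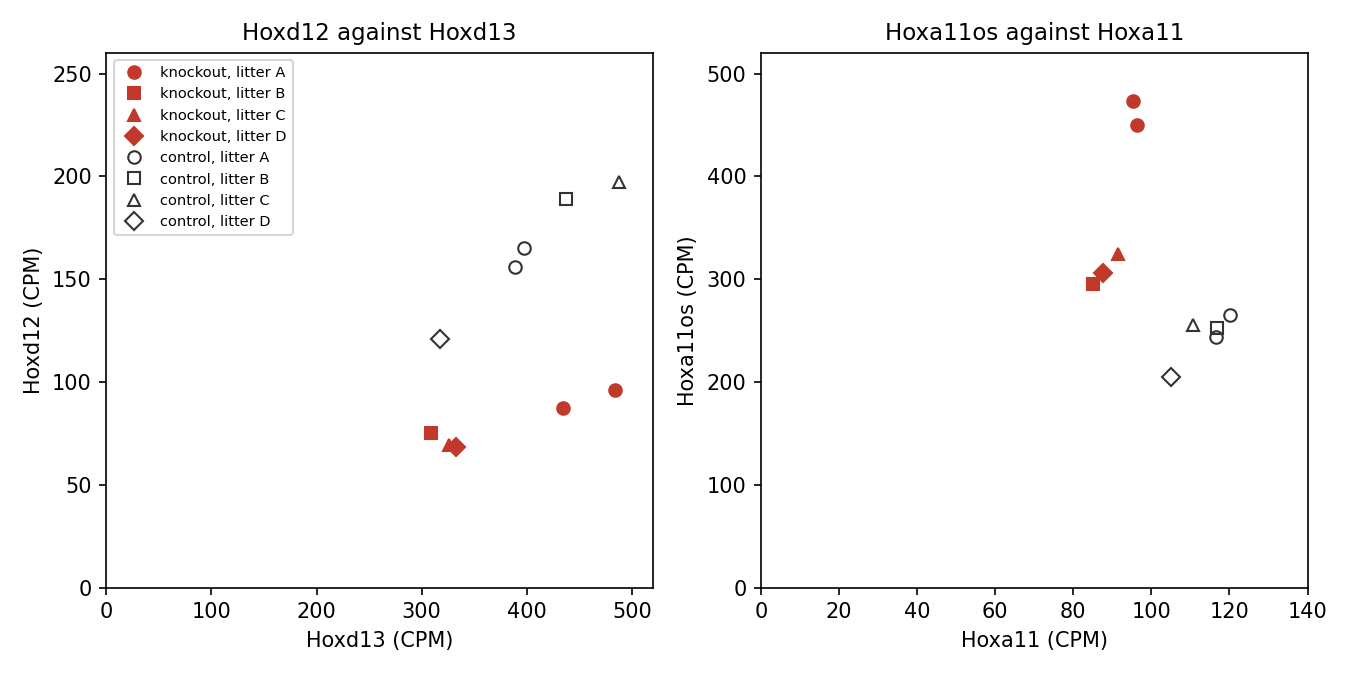
CPM of Hoxd12 against Hoxd13 (left) and of Hoxa11os against Hoxa11 (right) in each of the 5 knockouts (filled) and 5 controls (open), with litter shown by shape. At like Hoxd13 values the knockouts lie below the controls in Hoxd12, and the knockouts lie to the upper left of the controls for Hoxa11os and Hoxa11.

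The nearest protein-coding genes beyond the clusters, 2 on each side, were set beside them. They lay 28865 bases (Ttll6) to 894119 bases (Hnrnpa3) from the cluster. Of these 16, 6 rose, 3 fell and 7 did not pass, where 18.1% of all genes tested rose and 17.1% fell. Evx1, a homeobox gene beyond Hoxa13, was at 23.8, 20.5, 18.8, 18.1 and 16.1 CPM in the knockouts, against 10.4, 10.1, 13.1, 17.3 and 11.1 CPM in the controls. It rose by 0.65 on the log2 scale (SE 0.15, adjusted p = 0.00536), while Evx2, its relative beyond Hoxd13, fell. Skap2 (0.66) and Snx10 (0.42), on the 3' side of HoxA, rose, as did Ttll6 (4.20) beyond Hoxb13, Skap1 (1.66) beyond Hoxb1, and Smug1 (0.18) by HoxC. Levels of Ttll6 were low, with means of 1.01 CPM in knockouts and 0.0521 CPM in controls, where it had 12 counts over the 5 libraries. Skap1 averaged 0.536 CPM in knockouts and 0.166 CPM in controls, and its groups overlapped. Lnpk, beyond Evx2, fell by 0.25 on the log2 scale, and Calcoco1 and Atp5g2 by HoxC fell by 0.19 and 0.23.

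Genes known to act with, above or below Hox proteins were counted from lists. Over all genes tested, 18.1% rose and 17.1% fell, 35.2% in either direction. Of 9 cofactor genes, Meis3 (0.49) rose, Pbx2 (-0.41) and Pknox2 (-0.51) fell, and 6, Meis1 and Meis2 among them, did not pass. Of 10 tested genes of signals and factors upstream of limb Hox genes, 2 rose and 4 fell. Shh, the signal of the posterior margin, averaged 8.74 ± 1.35 CPM in knockouts and 3.75 ± 1.73 CPM in controls (SD, n = 5 each; 1.22, adjusted p = 0.00564), and Tbx5, the forelimb factor, 88.0 ± 9.95 CPM and 188 ± 20.7 CPM (-1.09). Fgf8, a signal of the apical ridge, had a log2 fold change of 1.07 (adjusted p = 0.00153), and Gli2, a transducer of Hedgehog signals, one of -0.42. Of 8 tested genes listed as downstream of Hox proteins in limb, Bmp7 rose (0.64) and 5 fell, among them Aldh1a2 (-1.95), Epha7 (-1.22) and Shox2 (-0.92). Of 13 chromatin genes known to bear on Hox clusters, Eed (0.39) and Kmt2b (0.20) rose and Cbx2 (-0.21), Bmi1 (-0.30) and Men1 (-0.19) fell. The called shares of the cofactor and chromatin lists lie near that of all genes. The list medians were -0.03, -0.19, -0.45 and -0.06, where the median of all genes was -0.0009.

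Litter A, with the higher Hoxa13 and Hoxd13 values in its knockouts, was compared with litters B to D in an edgeR model with an interaction term, a comparison chosen after seeing the data. By edgeR's quasi-likelihood test, adjusted by Benjamini-Hochberg, 0 of 38 Hox genes and 0.0% of all genes passed (smallest Hox adjusted p = 0.469). At an unadjusted p below 0.05 there were 11 of the 38 Hox genes and 1748 of 20562 genes in all, a larger share among the Hox genes. Hoxa13 and Hoxd13, for which litter A was chosen, are among the 11, so that larger share is partly built in. With so few embryos per litter, the lack of adjusted calls does not show that litter A was like the others.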

How the data were processed

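The authors deposited estimated counts per Ensembl mouse gene, used here. The submitters' processing notes name DESeq2 1.16.1, Salmon 0.8.2, R 3.4.1 and build mm10 without a role. Gene-level summing and strand setting are not stated. Of values above 0, 0.059% were whole within 1e-06, so they were rounded before testing. Another deposited table was not used. Gene symbols and positions were taken from GENCODE M21 (GRCm38), in which 47224 of 47729 gene IDs had a symbol.

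After filterByExpr (minimum count 10, total 15) and TMM scaling, edgeR 4.0.16 in R 4.3.3 (glmQLFit and glmQLFTest) was run, knockout against control without covariates, over 20562 genes at 0.05. CPM are TMM-scaled. Standard errors were derived from the F statistic, and 95% intervals from them. Ratios used CPM plus 0.5. The common biological coefficient of variation was 16.4%. The fit was tested on simulated data. No libraries of a group were alike within sampling noise, with chi-square per degree of freedom of at least 17.3. Replicates are separate embryos per the labels' protocols. Same-numbered libraries share a litter, per the labels. Litter A gave knockouts 1 and 2 and controls 1 and 2, and the labels do not say which of these belong together. Deviations of same-numbered libraries correlated at -0.03, 0.15, -0.02, 0.05 and 0.23. Alternatives used DESeq2 1.42.0, library size only, upper quartile scaling, no filter, blocks, somite stage and left-out libraries. Named genes were all Hox genes, given per library where called at a log2 fold change of at least 0.5, in group 13 or in a ratio; up to 4 called genes of smallest adjusted p in each list of Hox cofactor, upstream and downstream genes, and the called chromatin genes; called transcripts inside clusters; and neighbours. Counts cover all members, of which 1 is not reported here by itself. Members and lists were chosen with earlier results of these data known. Promoter windows came from RefSeq (GRCm38.p6).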

Additional observations from a re-analysis of the deposited data

Results flagged for a closer look

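In 7 of the 76 groups examined (38 Hox genes in knockouts and in controls), 1 library stood apart from the other 4 by the gap rule of Dixon's test, and chance flags about 1 in 20 such groups. Control 5 was the highest control for Hoxb2 (8.07 CPM, others at most 4.05), Hoxb6 (1.17, others at most 0.368), Hoxb7 (1.44, others at most 0.673) and Hoxb8 (1.53, others at most 0.531). It was the lowest control for Hoxd10 (64.4 CPM, others at least 94.4) and Hoxd11 (94.3, others at least 126). Its Cre status is uncertain in the label, while its Cxxc1, at 89.5 CPM, lay above every knockout. Knockout 1 was the highest knockout for Hoxc12 (4.26 CPM, others at most 2.73).

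For 3 genes both litter A knockouts lay above both litter A controls while the knockout lay below the control in litters B, C and D. The log2 difference of knockout over control was 0.291 for Hoxa13 in litter A and -0.454 to -0.076 in the others, 0.421 for Hoxc11 against -0.494 to -0.177, and 0.601 for Hoxc12 against -0.08 to -0.053. In the interaction fit with edgeR's quasi-likelihood test, adjusted by Benjamini-Hochberg, none of the 3 passed. Hoxb3 and Hoxb5 had the reverse signs, lower on average in litter A (-0.55 and -0.04) and higher in the other litters, but their litter A libraries overlapped.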

How the results depend on the processing

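The number of Hox genes called stayed within 1.5 times of 17 in every setting tried. It was 20 with library size only, 19 with upper quartile scaling, 19 with DESeq2, 16 without the filter, 19 with the replicate number as a block, 20 with litter as a block, 14 without litter A, 15 with no-Cre controls only, and 16 to 22 with 1 library left out. The litter block changed no call beyond those given for Hoxb7, Hoxc8 and Hoxc9. Without litter A, with 3 against 3 libraries left, all genes called were 4023 against 7245, all genes called higher were 2002 and all genes called lower were 2021. Higher calls were 51.3% of all calls with TMM and 62.2% with library size only.

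Hoxa4 lost its call in 8 settings (0.35 to 0.51), Hoxb9 and Hoxc13 without litter A, and Hoxd8 without litter A and with no-Cre controls (-0.35). Hoxc6 passed without control 5 (0.60), Hoxd4 with library size only (0.25), and Hoxd3 without control 3 or knockout 3 (-1.92 to -1.71). Signs turned only for genes that did not pass. Hoxc4 was 0.049 with library size only, 0.017 with upper quartile scaling, 0.17 and 0.12 with the number and litter as a block, 0.063 without litter A and 0.31 with no-Cre controls. Hoxd10 was 0.028 with library size only. Hoxc11 was -0.02 with either replicate block, -0.025 with somite stage and -0.39 without litter A. Without litter A, the log2 fold change of Hoxa3 was -0.026 and that of Hoxc12 -0.083. With 1 library left out, Hoxc4 ranged over -0.19 to 0.48, Hoxc11 over -0.16 to 0.12, Hoxd10 over -0.13 to 0.027 and Hoxb1 over -0.021 to 0.34. The cause was not tested. None of the 7 ratios passed in any setting, which says nothing of stability, since a lone ratio cannot pass with 10 libraries or fewer. Low counts limit Hoxb13 and Hoxd1.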

Other observations

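Of 5 tested homeobox genes outside the clusters that are related to Hox genes, Gbx2, a gene of the midbrain-hindbrain boundary, rose by 2.62 on the log2 scale (SE 0.27). It averaged 1.26 ± 0.179 CPM in knockouts and 0.203 ± 0.083 CPM in controls (SD, n = 5 each; adjusted p = 1.89e-05 by edgeR's quasi-likelihood test, adjusted by Benjamini-Hochberg). Meox2, a homeobox gene of limb muscle and mesoderm, averaged 38.0 ± 6.27 CPM in knockouts and 101 ± 6.67 CPM in controls and fell by 1.41 on the log2 scale. Meox1 averaged 3.59 ± 1.26 CPM in knockouts and 6.48 ± 2.4 CPM in controls and fell by 0.85. Mnx1 did not pass. Of all genes tested, 35.2% were called in either direction.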
